A study of Mus musculus with 3008 samples.

Results

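A set of 6 genes of secreted factors, Areg, Penk, Fgl2, Ebi3, Csf1 and Mmp9, were followed through Foxp3+ regulatory T cells (Tregs) of the mouse spleen and colon. They were chosen by name, as 6 of the 23725 genes in the count table, and all 6 were found there. Each cell's transcripts had been counted by inDrops, which captures cells in droplets with barcoded primers and counts unique molecular identifiers (UMIs). The cells came from male mice of 7 months, strain B6 Foxp3-Ires-Gfp, in which a fluorescent protein marks cells that transcribe Foxp3, and were sorted as DAPI- TCRb+ CD4+ GFP+. A library of 617 cells came from mechanically dissociated spleen, and 2 libraries of 619 and 1772 cells, here colon 1 and colon 2, came from colon lamina propria digested with collagenase and dispase. No treatment is labelled.

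Tregs restrain immune responses, and those that settle in tissues are also known for factors that act on neighbouring cells. Amphiregulin (Areg) is a ligand of the epidermal growth factor receptor and a known product of Tregs that carry GATA3 and ST2, the receptor of interleukin-33. Proenkephalin (Penk) is cut into opioid peptides, and fibrinogen-like protein 2 (Fgl2) acts on antigen-presenting cells through an inhibitory Fc receptor. Ebi3 is a subunit that interleukin-27 and interleukin-35 share, Csf1 is the growth factor of macrophages, and Mmp9 is a protease that cuts extracellular matrix.

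The stretches before the transcription starts are shown because 5 of the 6 genes passed 2-fold towards colon in either library, as given further on. RefSeq's promoter table (build GRCm38.p6) held 4 of the 6 genes, and the 250 bases before each start are printed 5′ to 3′ on the gene's strand. Capitals mark the letters of a motif found on either strand. The motifs, chosen after the sequences were read, were the cyclic AMP element TGACGTCA, the AP-1 site TGANTCA and the NF-kB site.
Areg (chr5:91139349-91139598, plus strand): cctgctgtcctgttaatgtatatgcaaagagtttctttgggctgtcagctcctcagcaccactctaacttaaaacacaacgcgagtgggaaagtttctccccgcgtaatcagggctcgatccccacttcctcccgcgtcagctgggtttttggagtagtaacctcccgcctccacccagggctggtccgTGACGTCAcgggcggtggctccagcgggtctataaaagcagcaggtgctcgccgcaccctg
Fgl2 (chr5:21372423-21372672, plus strand): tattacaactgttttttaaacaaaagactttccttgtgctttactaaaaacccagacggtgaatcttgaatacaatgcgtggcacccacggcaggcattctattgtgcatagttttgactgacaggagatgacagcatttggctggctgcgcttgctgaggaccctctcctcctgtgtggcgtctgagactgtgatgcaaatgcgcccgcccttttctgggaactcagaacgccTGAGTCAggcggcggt
Ebi3 (chr17:55952373-55952622, plus strand): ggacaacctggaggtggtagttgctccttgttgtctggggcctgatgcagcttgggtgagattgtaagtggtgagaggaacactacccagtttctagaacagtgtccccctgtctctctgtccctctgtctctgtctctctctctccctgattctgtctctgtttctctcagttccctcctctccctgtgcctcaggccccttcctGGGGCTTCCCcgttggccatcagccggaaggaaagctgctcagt
Csf1 (chr3:107760470-107760719, minus strand): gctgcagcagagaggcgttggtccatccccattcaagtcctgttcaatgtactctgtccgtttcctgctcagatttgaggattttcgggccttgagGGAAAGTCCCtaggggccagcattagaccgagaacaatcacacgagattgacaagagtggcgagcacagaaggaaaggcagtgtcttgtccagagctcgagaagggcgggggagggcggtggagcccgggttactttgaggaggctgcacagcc
Distances are counted from the start in the promoter table. The windows of Areg and Fgl2 each held 1 match, to the cyclic AMP element 61 to 54 bases before the start of Areg and to the AP-1 site 16 to 10 bases before that of Fgl2. The gene position of Fgl2 given further on begins earlier, at 21372642, inside the window. By that position the AP-1 letters lie within the gene and not before it. The windows of Ebi3 and Csf1 each held 1 match to the NF-kB site, 44 to 35 bases before the start of Ebi3 and, on the other strand, 154 to 145 bases before that of Csf1. No motif overlapped another. Of the 32851 windows of this length in the table, 1.55% held the cyclic AMP element, 6.75% the AP-1 site and 3.90% the NF-kB site. A match describes letters and is not evidence of a bound factor.

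The spleen library held 1255946 UMIs, colon 1 1253246 and colon 2 3916649, with medians of 1847, 1767 and 2026.5 per cell. Foxp3 was detected in 33.2%, 47.5% and 43.9% of the cells, and Cd4 in 34.4%, 47.3% and 57.6%. Ribosomal protein genes took 28.5%, 17.6% and 16.3% of the UMIs. Cells of different libraries shared 5 to 11 barcodes. The labels name no animal, so each tissue counts as 1 sample, and tissue and dissociation cannot be told apart. Intervals are 95% and cover counting error only. Each colon ratio has that 1 spleen library as its base, and no p-value can be given. Lists of marker genes for other cells were near 0 for fibroblasts (2.39 CPM in spleen, against 6.38 CPM in colon 1 and 5.11 CPM in colon 2; CPM are a gene's UMIs per 1000000 UMIs of a library) and low for macrophages (1.59, 10.4 and 30.4 CPM). They summed to 114, 93.4 and 128 CPM for dendritic cells, 58.9, 37.5 and 64.9 CPM for epithelium and 101, 53.5 and 51.1 CPM for endothelium. The list for granulocytes or mast cells summed to 537, 463 and 333 CPM, all from Cxcr2 and Csf3r, while S100a8, S100a9, Cpa3, Mcpt1 and Mcpt2 had 0 UMIs in every library.

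Relative to library totals, all 6 factors had more UMIs in either colon library than in spleen. At least a 2-fold higher level in both was found for 5 of the 6, and a 2-fold lower level for 0. The same 2-fold rule was passed by 11.7% of the 3482 genes that reached 50 CPM in spleen or in both colon libraries, and 4.45% of them were lower by that rule. All 6 factors passed the 50 CPM filter, but Areg, Ebi3, Csf1 and Mmp9 did so only through colon, where they are high, so their count is a description and cannot be read against these shares. The same 5 factors were past 4-fold, as were 4.82% of those genes. The median log2 ratio of the 6 was 2.93 in colon 1 and 2.89 in colon 2, and that of the 3482 genes was 0.03 and 0.05. Because of the same filter, these values too are a description, and those of the 6 cannot be read against those of the 3482. Leaving out cells that held 2 or more markers of another cell type (45 spleen, 31 colon 1 and 88 colon 2 cells) left the count at 5, as did totals without ribosomal protein genes. Of the cells left out, 36, 25 and 56 held both Cxcr2 and Csf3r of the granulocyte or mast cell list. Few were thus left out for markers of other types, and the step says little about those types.

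Areg (chromosome 5, 91139599 to 91148432, plus strand, mm10) stood at 21.5 CPM in spleen, against 207 CPM in colon 1 and 153 CPM in colon 2. It was 9.61-fold and 7.10-fold higher in colon, with log2 ratios of 3.27 (2.69 to 3.89) and 2.83 (2.27 to 3.44). Colon 2 lay below colon 1 by more than counting error, with a log2 ratio between them of -0.44 (-0.65 to -0.22). By unthinned share of cells the libraries were close, at 17.6% and 16.9%. Of the 109 cells with Areg in colon 1, 54 held 1 UMI, as did 156 of 300 in colon 2. In colon 1, 2 cells with 10 or more UMIs held 10.4% of its UMIs, and in colon 2 1 such cell held 1.67%. UMIs of a cell are treated as independent, so the intervals of Areg are too narrow.

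Penk (chromosome 4, 4133531 to 4138819, minus strand) stood at 58.1 CPM in spleen, against 410 CPM in colon 1 and 449 CPM in colon 2, which is 7.06-fold and 7.72-fold higher in colon. The log2 ratios were 2.82 (2.46 to 3.19) and 2.95 (2.61 to 3.31), and the log2 ratio between the colon libraries was 0.13 (-0.01 to 0.27). Its UMIs came from a few cells with many copies each. In colon 1 its 514 UMIs lay in 45 cells, and 15 cells with 10 or more UMIs held 81.7% of them. In colon 2 its 1758 UMIs lay in 162 cells, and 47 such cells held 78.7%. The richest cell held 71 UMIs in colon 1 and 104 in colon 2. In spleen 73 UMIs lay in 14 cells, and 3 cells held 56.2%. The intervals of Penk treat these UMIs as independent and are therefore too narrow.

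Fgl2 (chromosome 5, 21372642 to 21378374, plus strand) was found in more colon cells than any other of the 6. It stood at 58.9 CPM in spleen, against 484 CPM in colon 1 and 650 CPM in colon 2, which is 8.21-fold and 11-fold higher. The log2 ratios were 3.04 (2.69 to 3.41) and 3.46 (3.13 to 3.82), and colon 2 lay above colon 1 by 0.43 (0.30 to 0.56). UMIs of Fgl2 were found in 34 of 617 spleen cells, 245 of 619 colon 1 cells and 855 of 1772 colon 2 cells, with a median of 1 UMI per positive cell in spleen and 2 in each colon library.

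Ebi3 (chromosome 17, 55952640 to 55957022, plus strand) differed least. Its levels of 37.4 CPM in spleen, against 61.4 CPM in colon 1 and 65.4 CPM in colon 2 gave 1.64-fold and 1.75-fold higher values, short of 2-fold. The log2 intervals of 0.17 to 1.27 and 0.35 to 1.29 lay above 0 and below those of Areg, Penk, Fgl2, Csf1 and Mmp9. Interleukin-35 pairs Ebi3 with the product of Il12a and interleukin-27 pairs it with that of Il27. Il12a had 0 UMIs in all 3 libraries, and Il27 had 1 UMI in colon 2 and 0 in spleen and colon 1. Taking 3 counts as the limit of a count of 0, these depths allow up to 2.39 CPM in spleen and colon 1 and 0.766 CPM in colon 2. Dendritic cells also make Ebi3. Their list summed to 111 and 143 CPM in the colon 1 and colon 2 cells with Ebi3, against 93.4 and 128 CPM in all cells, and its part in the level of Ebi3 was not tested. Over spleen, colon 1 and colon 2, its highest genes were Xcr1 (59.7, 45.5 and 40.3 CPM) and Cd74 (51.0, 39.1 and 61.5). H2-Aa stood at 1.59, 5.59 and 19.7 CPM, and Flt3, Itgax, Zbtb46 and H2-Ab1 stayed at or below 4.34 CPM in every library.

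Csf1 (chromosome 3, 107741048 to 107760469, minus strand) stood at 13.5 CPM in spleen, against 59.0 CPM in colon 1 and 82.5 CPM in colon 2. The values in colon were 4.36-fold and 6.09-fold higher, with log2 ratios of 2.13 (1.35 to 2.98) and 2.61 (1.91 to 3.40). By CPM, colon 2 lay above colon 1 by a log2 ratio of 0.48 (0.11 to 0.87), while the unthinned share of cells with Csf1 was 6.79% in colon 1 and 6.66% in colon 2. In spleen 1 cell held 10 of the 17 UMIs. In colon 2, 5 cells with 10 or more UMIs held 22.0% of 323, and no colon 1 cell reached 10. The intervals of Csf1, like those of Penk, treat UMIs as independent and are therefore too narrow. The macrophage list summed to 0 CPM in the 42 colon 1 cells with Csf1 and to 69.0 CPM in the 118 of colon 2, and its part in the level of Csf1 was not tested.

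Mmp9 (chromosome 2, 164940780 to 164955850, plus strand) had the widest gap. It had 3 UMIs in 3 spleen cells (2.39 CPM), 205 CPM in colon 1 and 226 CPM in colon 2. The log2 ratios were 6.42 (4.86 to 8.71) and 6.56 (5.01 to 8.84), and by the smaller of its ratios it ranked 4 among the 3482 genes. Mmp9 entered those genes only through colon, and its 3 spleen UMIs equal the floor set for a count of 0, so the rank is a description. Within colon it was found in 101 of 619 and 420 of 1772 cells, with at most 9 and 10 UMIs in a cell. Neutrophils also make Mmp9. The list for granulocytes or mast cells, at 0 but for Cxcr2 and Csf3r, summed to 420 CPM in colon 1 cells with Mmp9 and 348 CPM in those of colon 2, against 463 and 333 CPM in all cells of these libraries, and its part in the level of Mmp9 was not tested.

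**Figure D1:**
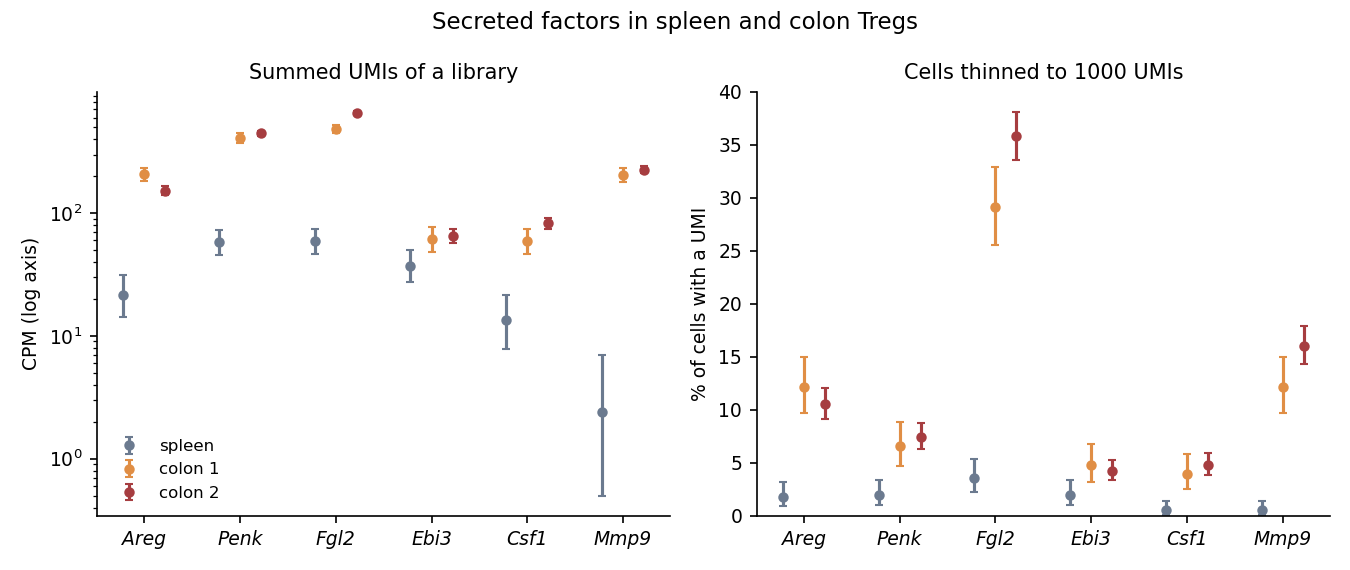
Level of each factor (left, CPM of a library on a log axis, with exact Poisson intervals) and share of cells with a UMI after thinning to 1000 UMIs (right, exact Clopper-Pearson intervals) in spleen, colon 1 and colon 2; bars are 95% intervals of counting error. The colon points of 5 factors lie well above spleen, from 4.36-fold for Csf1 in colon 1 to the gap of Mmp9, while those of Ebi3 lie closest, at 61.4 and 65.4 against 37.4 CPM.

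To compare numbers of cells at 1 depth, each cell was thinned at random to 1000 UMIs, which left 613 spleen, 610 colon 1 and 1744 colon 2 cells. The share of cells with Fgl2 was 3.59% in spleen, 29.2% in colon 1 and 35.8% in colon 2. Areg was found in 1.79%, 12.1% and 10.6% and Mmp9 in 0.489%, 12.1% and 16.1%. Penk was found in 1.96%, 6.56% and 7.45%, Ebi3 in 1.96%, 4.75% and 4.24%, and Csf1 in 0.489%, 3.93% and 4.82%. All 6 shares were higher in both colon libraries. The intervals of spleen and colon did not overlap, except those of Ebi3, at 1.02 to 3.40% in spleen against 3.21 to 6.76% in colon 1 and 3.35 to 5.30% in colon 2. Without thinning, the shares ran from 0.486% (Mmp9) to 5.51% (Fgl2) in spleen, from 6.79% (Csf1) to 39.6% (Fgl2) in colon 1 and from 6.66% (Csf1) to 48.3% (Fgl2) in colon 2. No sorted cell type without these genes was available to give the share from free RNA. The lowest shares among the colon clusters described further on were 5.0% and 8.07% for Fgl2 and 2.5% and 4.93% for Mmp9, without thinning, in a cluster whose median cell held 1926 UMIs.

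**Figure D2:**
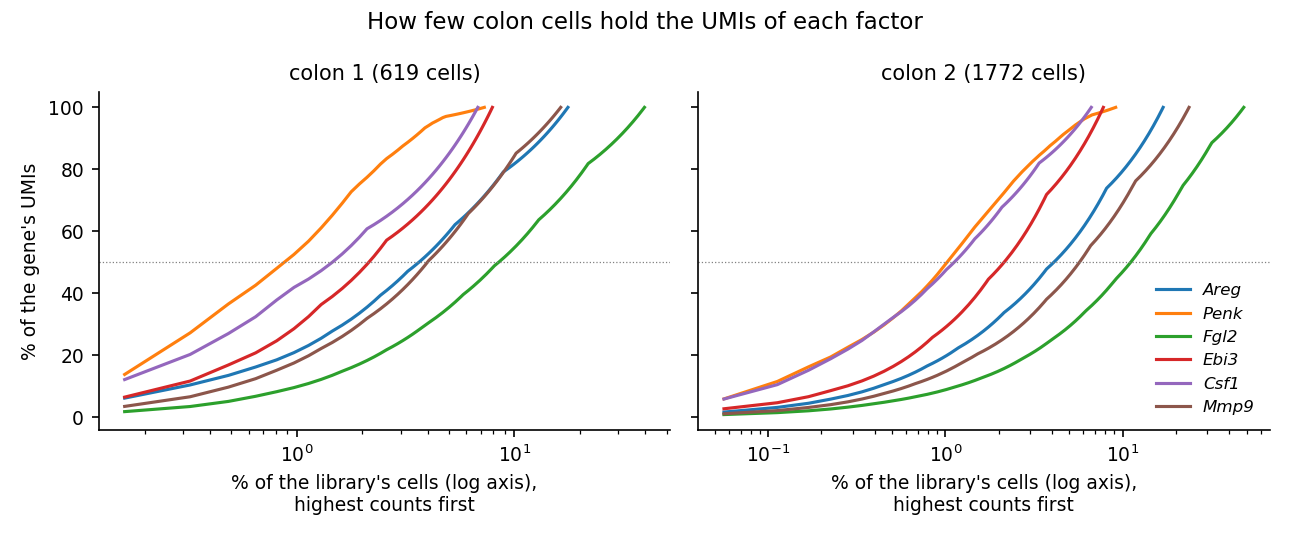
Cumulative share of a factor's UMIs (vertical axis, %) against the share of cells of the library (horizontal log axis, %), with cells ordered from the highest count, in colon 1 (left, 619 cells) and colon 2 (right, 1772 cells). The dotted line marks 50% of a factor's UMIs, which Penk reaches with 6 cells in colon 1 and 19 in colon 2, Csf1 with 9 and 20, and Fgl2 with 53 and 197.

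More than one factor in the same cell was uncommon in spleen. After thinning, 9.30% of spleen cells held a UMI of any factor, against 52.5% in colon 1 (48.4 to 56.5%) and 58.0% in colon 2 (55.7 to 60.4%). Cells with 2 or more factors made up 0.979%, 13.9% and 18.5%, and the most factors in a cell was 2, 3 and 4. Without thinning, 2 or more factors were found in 2.27%, 24.6% and 32.8%, so these shares depend on the depth. Among colon cells with Fgl2, 64.0% in colon 1 and 59.5% in colon 2 held no other factor. The share without another factor was 45.9% and 45.1% for Areg, 45% and 40% for Penk, 44.8% and 36.5% for Ebi3, 62.5% and 36.9% for Csf1 and 55.4% and 44.6% for Mmp9. Such a share depends on how common the other factors are. Cells with Fgl2 alone are not set against the most common factor, Fgl2 itself, so the shares cannot be compared between factors.

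For each of the 15 pairs, the share of cells with the second factor was compared between colon cells with and without the first. The ratio of these shares was above 1 in both libraries for 7 pairs, below 1 in both for 6 and on either side for 2, and in each single library the intervals of the compared shares overlapped for all 15. The 7 were the 6 pairs among Areg, Penk, Fgl2 and Ebi3, and Csf1 with Mmp9. Of cells with Areg, 13.5% in colon 1 and 9.78% in colon 2 held Penk, against 5.60% and 7.18% of cells without Areg, ratios of 2.41 and 1.36. The ratio of Penk with Ebi3 was 2.28 and 2.17, and that of Areg with Ebi3 1.51 and 1.64. Fgl2 gave 1.18 and 1.0 with Areg, 1.22 and 1.17 with Penk and 1.71 and 1.29 with Ebi3. Csf1 with Mmp9 gave 2.15 and 1.69.

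Between Areg, Penk or Ebi3 and Csf1 or Mmp9 the ratios were below 1 in both libraries for 5 of 6 pairs. Penk with Mmp9 gave 0.20 and 0.70, Areg with Csf1 0.31 and 0.54, and Ebi3 with Mmp9 0.56 and 0.66. Penk with Csf1 shared 0 cells in colon 1 and 4 in colon 2. Areg with Mmp9 gave 1.0 and 0.65. Over both colon libraries the intervals stood apart for 2 pairs, Penk with Ebi3 (8.82%, 5.02 to 14.1%, against 4.03%, 3.24 to 4.94%; 15 cells with both) and Csf1 with Mmp9 (25.9%, 18.0 to 35.2%, against 14.5%, 13.1 to 16.0%; 28 cells with both). These calls depend on the depth: without thinning, 8 pairs stood apart over both libraries. Those higher were Areg with Penk, Areg with Ebi3, Penk with Ebi3, Fgl2 with Ebi3, Fgl2 with Mmp9 and Csf1 with Mmp9, and those lower were Areg with Mmp9 and Penk with Mmp9. Of 7 settings of thinning, random draw and left-out cells, Csf1 with Mmp9 stood apart in 6, Areg with Penk in 4, and Penk with Ebi3 and Areg with Ebi3 in 3 each. Across the 7 settings, in each library, Areg with Penk, Areg with Ebi3 and Penk with Fgl2 stayed above 1 and Penk with Csf1 and Penk with Mmp9 below 1. The other 10 pairs, Penk with Ebi3 (0.66 to 3.35) and Csf1 with Mmp9 (0.97 to 2.91) among them, fell on both sides of 1.

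**Figure D3:**
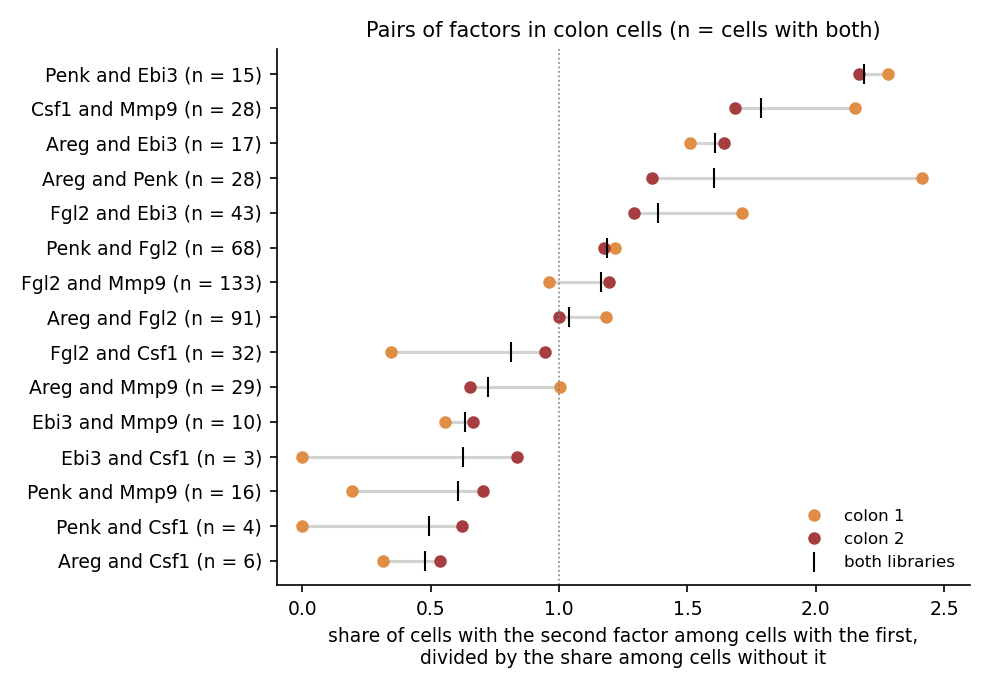
Ratio of shares for the 15 pairs of factors in thinned colon cells (horizontal axis, 1 is the dotted line; points are colon 1 and colon 2, ticks both libraries together), with the number of cells holding both factors. Penk with Ebi3, Csf1 with Mmp9, Areg with Ebi3 and Areg with Penk are at the top (ratios over both libraries of 2.19, 1.79, 1.61 and 1.60) and the pairs that join Csf1 to Areg and Penk at the bottom (0.48 and 0.49).

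Colon cells were then clustered without the 6 factors, and the factors were read in the clusters. Of 7 clusters, cluster 1 (674 cells, led by Dgat2, Slco2b1, Il1rl1, Pxdc1 and Ctgf) is called GATA3-ST2 Treg-like, since 5 of the 8 markers of that type were at least 2-fold higher there and Il1rl1 and Gata3 were among its 10 top genes. Cluster 2 (512 cells) was led by the stress and early genes Hspa1a, Hspa1b, Fos, Fosb and Rgcc, cluster 3 (510 cells) by Tmem176b, Plek, Tmem176a, Ppp1r3b and Angptl2, and cluster 5 (244 cells) by C2cd4b, Igfbp7, Ackr3, Etv5 and Il1r2. Cluster 4 (303 cells, led by Evl, Ccr7, Nsg2 and Tcf7) is called lymphoid-circulating T cell-like, with 6 of its 7 detected markers at least 2-fold higher. Of 4 detected markers of follicular-type T cells, 3 were also at least 2-fold higher there, and 1 was among its 10 top genes. Bcl6 stood at 143 and 186 CPM in cluster 4, which may therefore hold both types. Cluster 6 (101 cells, led by Iigp1, Ccl4, Ifit1, Tbx21 and Rtp4) carried interferon response genes, and cluster 7 (47 cells, led by Ccnb2, Stmn1, Birc5, Top2a and Ccna2) those of division. These genes define the clusters and are no result.

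By CPM, Areg, Penk and Ebi3 were highest in the GATA3-ST2 Treg-like cluster in both libraries. There Areg reached 459 CPM (colon 1) and 343 CPM (colon 2), while cluster 3 had 56.3 and 56.4 CPM. With 28.2% of colon cells, the cluster held 62.5% of all colon UMIs of Areg. Penk stood at 1153 and 1309 CPM, against 43.3 and 19.1 in cluster 3, and 81.9% of its UMIs lay there. Ebi3 stood at 131 and 132 CPM, against 7.81 and 23.6 in cluster 2, with 57.7% of its UMIs there. In each library the CPM interval of Penk in cluster 1 lay above those in all other clusters, but these intervals treat UMIs as independent and are too narrow. By share of cells, unthinned, Penk was found in 16.8% (11.3 to 23.6%) and 19.8% (16.5 to 23.5%) of cluster 1. These intervals overlapped those of cluster 6 (0.877 to 23.5%) and cluster 7 (1.46 to 36.4%) in colon 1 and of cluster 7 (3.76 to 30.7%) in colon 2. The interval of Areg in colon 1 (387 to 540) overlapped that in cluster 6 (223 to 538). The interval of Ebi3 overlapped those in clusters 3, 5 and 7 in colon 1 (93.7 to 177 in cluster 1) and that in cluster 6 in colon 2 (112 to 155 in cluster 1). The dividing cluster came next for Penk, at 783 and 363 CPM, from 2 and 4 positive cells. In colon 1 its 17 cells exceeded cluster 1 by unthinned share for Areg (35.3% against 33.5%) and Ebi3 (23.5% against 16.8%). In colon 2 cluster 1 had the highest share of both. The median cell held 5269 UMIs in cluster 7 and 2064 in cluster 1.

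Of the 62 colon cells with 10 or more UMIs of Penk, 51 lay in the GATA3-ST2 Treg-like cluster (10 of 15 in colon 1 and 41 of 47 in colon 2), as did 53.8% of the 145 cells with 1 to 9 UMIs and 25.0% of those with 0. The boundary of 10 is arbitrary, with 16 cells at 8 to 11 UMIs. Over all colon cells, Penk-rich cells had a median of 2344 UMIs, against 1952 in cells without Penk. Within that cluster, the 51 Penk-rich cells were compared with the 545 cells without Penk, without thinning. The part of depth in the shares was not tested. The genes compared were 20 partner genes listed further on, the other 5 factors, Pdcd1 and Hopx. Over both libraries the intervals overlapped for all of these genes, and Il1rl1, for example, was found in 70.6% (56.2 to 82.5%) against 51.9% (47.6 to 56.2%). In single libraries 3 genes stood apart, Gzmb (1 of 10 Penk-rich cells against 61.2%) and Klf2 (7 of 10 against 24.0%) in colon 1 and Il1rl1 (73.2% against 51.7%) in colon 2. None of these 3 did so in the other library.

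Csf1 and Mmp9 lay largely outside that cluster. By CPM, Mmp9 was highest in cluster 2, with 430 CPM (colon 1) and 427 CPM (colon 2), followed by cluster 3 at 247 and 319. Mmp9 was 127 and 126 CPM in cluster 1 and lowest in cluster 4, at 20.4 and 30.1. By share of cells, unthinned, cluster 2 did not lead cluster 3 in the same way, with 21.4% and 35.5% against 29.5% and 35.4%. The median cell held 1635 UMIs in cluster 2 and 2340 in cluster 3. The heat-shock and Fos genes that lead cluster 2 are known to be induced by enzymatic digestion, and their part in the level of Mmp9 there was not tested. Cluster 3 held 34.2% of the colon UMIs of Mmp9 and cluster 2 33.5%. Csf1 was highest in cluster 5, at 117 and 190 CPM, with 97.6 and 118 in cluster 2 and 69.3 and 138 in cluster 3, whose intervals overlapped those of cluster 5 in each library. It was 25.5 and 17.5 CPM in cluster 1.

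Fgl2 was broad. It lay between 549 and 905 CPM in clusters 1, 2, 3 and 6 of both libraries, at 396 and 336 in cluster 5, and at 81.7 and 74.2 in the lymphoid-circulating T cell-like cluster 4. There 5.0% and 8.07% of cells held it, against 40.6% and 53.6% in cluster 1.

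**Figure D4:**
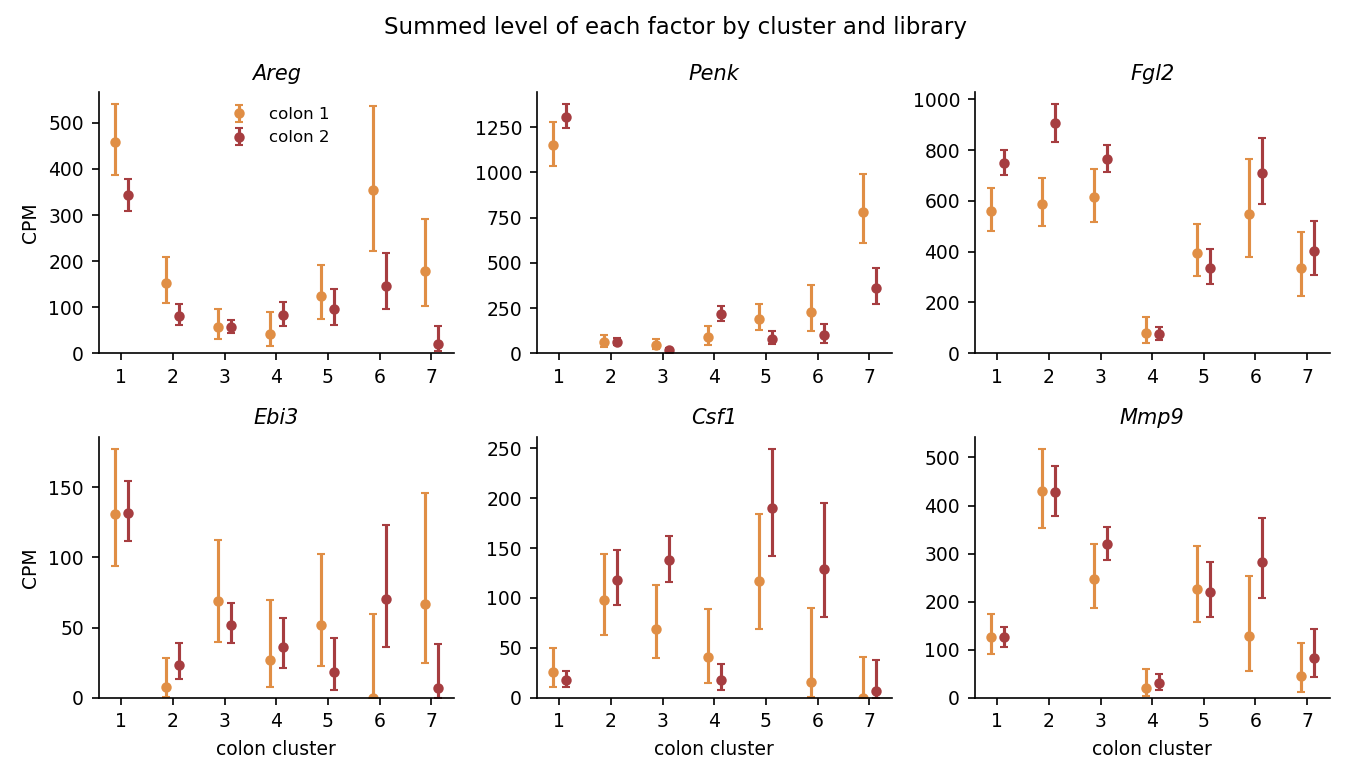
Level of each factor (vertical axis, CPM, from 0) in the 7 colon clusters made without the factors (horizontal axis), in colon 1 and colon 2; bars are exact Poisson 95% intervals. Areg, Penk and Ebi3 are highest in cluster 1 (Areg at 459 and 343 CPM), Mmp9 in cluster 2 (430 and 427 CPM) and Csf1 in cluster 5, and Fgl2 and Mmp9 are lowest in cluster 4.

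Splitting the colon cells by cluster bears on the pairs. Within the GATA3-ST2 Treg-like cluster, Penk was found in 14.2% of cells with Areg and in 17.4% of cells without it, a ratio of 0.82 (1.28 in colon 1 and 0.70 in colon 2), and outside it the ratio was 1.93 (2.58 and 1.62; 7 cells with both). Areg with Ebi3 gave 1.34 within and 0.61 outside, and Penk with Ebi3 1.43 and 1.80, all with overlapping intervals. Csf1 with Mmp9 gave 1.63 outside the cluster, with overlapping intervals, and only 2 cells within it held both. Fgl2 with Ebi3 stood apart outside the cluster in colon 1 (6.98% against 1.22%, ratio 5.72). Fgl2 with Mmp9 stood apart there over both libraries, where 21.5% of cells with Fgl2 held Mmp9 against 15.2% of those without, a ratio of 1.41 from colon 2 (1.52) and not colon 1 (0.96). Within the cluster that ratio was 0.51. In colon 2 cells of the cluster Fgl2 was found in 21.6% of cells with Mmp9 against 41.9% of those without, intervals apart. This split was added after the pairs had been seen.

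The factors were also set against 20 partner genes, asking in which cells each factor was found more often. Areg was more frequent in thinned colon cells with Gata3, Il1rl1 (which encodes ST2) or Klrg1, a receptor gene of mature effector cells, with intervals apart in both libraries. It was found in 20.8% of cells with Gata3 against 9.33% of cells without in colon 1, and in 16.7% against 8.65% in colon 2. For Il1rl1 these shares were 29.8% against 8.91% and 20% against 9.04%. For Klrg1 they were 20% against 9.09% and 18.1% against 6.73%.

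Penk ran with the same genes, and its intervals stood apart in colon 2 but overlapped in colon 1. It was found in 15.2% against 5.04% of colon 2 cells with and without Gata3, a ratio of 3.02, and the ratio in colon 1 was 1.67. For Ikzf2, which encodes Helios, the ratios were 2.08 and 2.11. Ebi3 was found in 11.7% of colon 1 cells with Il1rl1 against 3.49% without, intervals apart, with a ratio of 2.01 and overlapping intervals in colon 2.

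Mmp9 ran with Il10, whose product is a cytokine that dampens inflammation. It was found in 17.3% of colon 1 cells with Il10 against 6.91% without, and in 20.2% against 12.1% in colon 2, intervals apart in both. In colon 2 alone its intervals also stood apart for Gzmb (ratio 1.98), Icos (1.88) and Fosb (1.54), upwards, and for Gata3 (0.65), Il1rl1 (0.51), Ikzf2 (0.58) and Ccr7 (0.27), downwards. Csf1 showed the same sides for Il10 (2.19), Gata3 (0.39) and Il1rl1 (0.15) in colon 2, where the intervals stood apart. In colon 1 its ratios were 1.39, 1.55 and 0.78, with overlapping intervals.

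Fgl2 was more frequent with Gzmb, which encodes granzyme B, and with Icos, a costimulatory receptor gene, in both libraries. The shares were 35.7% against 23.2% and 43.8% against 28.6% for Gzmb, and 32.1% against 19.6% and 37.4% against 26.8% for Icos. It was less frequent with Ccr7, a receptor gene of cells that recirculate through lymph nodes, at 10% against 31.3% and 7.89% against 38.5%. With Bcl6, a transcription factor gene of follicular T cells, it was found in 0 of 13 cells against 29.8% in colon 1, and in 14.3% against 36.6% in colon 2.

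**Figure D5:**
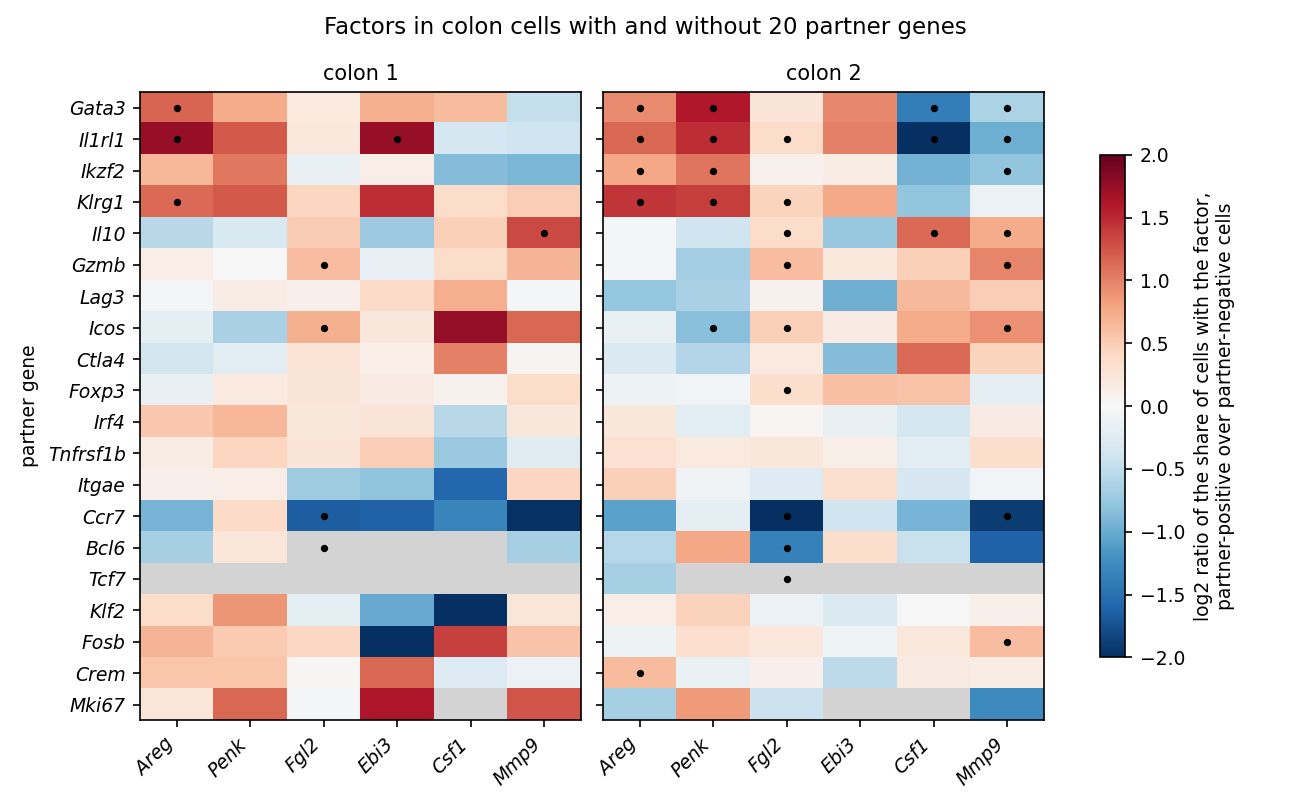
Log2 ratio of the share of thinned colon cells with a factor (columns) between cells with and without a partner gene (rows), in colon 1 (left) and colon 2 (right); red is more frequent, blue less, colours end at 2 and -2, grey a share of 0 in cells with the partner, and a dot marks intervals that do not overlap. Areg and Penk share the red rows Gata3, Il1rl1, Ikzf2 and Klrg1, and Mmp9 is red for Il10 (ratios 2.51 and 1.67) and blue for Ccr7 (0.25 and 0.27).

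In spleen, where few cells held a factor, cells were not thinned. Klrg1 was found in 7 of 19 cells with Areg (36.8%, 16.3 to 61.6%) against 9.70% (7.45 to 12.4%) of the others. The same held for Fgl2 (12 of 34 cells, 35.3% against 9.09%) and Ebi3 (11 of 29 cells, 37.9% against 9.18%), with intervals apart for each, and for Penk it was 3 of 14, with overlapping intervals. Cells with Areg, Fgl2 and Ebi3 had median totals of 2018, 2033.5 and 2319 UMIs, against 1838.5, 1837 and 1833 in cells without, and the part of this depth in the Klrg1 shares was not tested. The intervals also stood apart, upwards, for Gzmb and Irf4 in cells with Areg (ratios 9.44 and 7.41, from 3 and 4 cells), for Tnfrsf1b in cells with Fgl2 (2.20), and for Icos, Ctla4 and Tnfrsf1b in cells with Ebi3 (1.94, 1.70 and 2.22). Il1rl1 was found in 1 spleen cell with Areg, 0 with Penk and 2 with Ebi3.

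The genes whose counts ran most like each factor over colon cells were ranked by Pearson correlation of log-scaled counts among 4983 genes, taking the smaller of the values in the 619 and 1772 cells. Cells of a library were made together and differ in depth, and in counts this sparse the values, between 0.11 and 0.28 in either library, are weak and serve only as a description. For Areg they were Nfkbia, Gadd45b, Klrg1, Nfkbiz and Il1rl1, for Penk Pdcd1, Fam46a, Nfkbia, Klrg1 and Hopx, and for Ebi3 Klrg1, Il1rl1, Cd83, H2afz and Hopx. For Fgl2 they were Vim, S100a6, Gzmb, Lmna and H2-K1, for Csf1 Ptms, Sept11, Ly6a, Ece1 and Mt1, and for Mmp9 Tmsb4x, Ly6a, Vim, S100a6 and Icos.

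The partners of each factor were read from lists of its pathway, counting a gene as measured with 30 UMIs over the 3 libraries. Among all 9580 such genes, 10.4% were at least 2-fold higher and 5.4% at least 2-fold lower in both colon libraries. A gene high in colon can reach 30 UMIs through colon alone, as Pcsk1 did with 0 spleen UMIs. The counts of each list are therefore a description and cannot be read against these shares. In the epidermal growth factor family, 0 of 5 measured genes passed 2-fold either way. The related ligand genes Ereg (2.39, 11.2 and 3.32 CPM in spleen, colon 1 and colon 2), Hbegf (3.18, 8.78 and 4.34) and Btc (6.37, 3.99 and 5.62) stayed at a few CPM. The sheddase gene Adam17, whose product frees amphiregulin from the membrane, stood at 47.8, 65.4 and 64.9 CPM, and Egfr, the receptor gene, had 2, 6 and 16 UMIs.

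Of 6 measured genes of the opioid list, 4 were higher and 0 lower. Furin, which encodes a convertase of precursor proteins, stood at 22.3 CPM in spleen and 167 and 204 in colon, 7.48-fold and 9.16-fold. Pcsk1, the gene of a convertase that cuts proenkephalin, had 0 spleen UMIs and 23 and 48 in colon, at least 7.68-fold and 5.13-fold higher against a floor of 3 counts per library. Ctsl (4.78, 17.6 and 10.7 CPM), a protease gene, and Oprm1, an opioid receptor gene with 3, 8 and 27 UMIs, were the others, and their log2 intervals reached below 0 in colon 2 for Ctsl (-0.07) and in both libraries for Oprm1 (-0.64 and -0.17). Oprd1, a receptor gene for enkephalins, had 4, 8 and 10 UMIs.

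No gene of the Fgl2 list was measured, and Fcgr2b, the gene of its receptor, had 0 UMIs in each library. In the interleukin-12 family list, 2 of 4 measured genes were higher, the receptor genes Il12rb1 (13.5, 66.2 and 75.6 CPM) and Il6st (66.1, 176 and 268), and 1 was lower, Il6ra (47.0, 16.0 and 16.9). Il27ra, a receptor gene for interleukin-27, stood at 60.5, 99.7 and 98.8 CPM. In the colony-stimulating factor list 0 of 2 passed 2-fold, with Csf2rb at 14.3, 13.6 and 10.5 CPM and Csf3r at 46.2, 39.9 and 26.6, and Csf1r, the receptor gene of Csf1, had 0 UMIs in each library.

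In the matrix protease list, 3 of 4 measured genes were higher. They were Adam8, a membrane protease gene (7.96, 109 and 126 CPM), Cd44, a matrix receptor gene whose product is known to dock Mmp9 on cells (104, 646 and 782), and Timp2, an inhibitor gene (129, 263 and 284). Adam19 stood at 42.2, 79.0 and 95.7 CPM. Timp1, which encodes the main inhibitor of Mmp9, had 0 UMIs in each library. Of the other matrix metalloproteases of the list, Mmp14 had 1, 1 and 13 UMIs, Mmp12 had 1 in spleen, Mmp13 had 1 in each colon library, and Mmp2, Mmp3, Mmp7, Mmp8 and Mmp10 had 0 throughout.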

How the data were processed

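Single-cell RNA was measured by inDrops in 3008 sorted cells. Per the submitters' processing notes, TopHat2, SAMtools and the mm10 build were used; versions, annotation and UMI collapsing were not given in the sources used here. As deposited, the table holds raw UMI counts per gene and cell, and 0 columns were left out. Cells were grouped by library as labelled. Colon 2 is replicate 2 by title but 1b by sample type, so the colon libraries may not be separate animals.

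UMIs were summed per library to CPM, and ratios to spleen have exact conditional binomial intervals, CPM exact Poisson intervals and shares Clopper-Pearson intervals (95%, scipy 1.17.1). A count of 0 was set to a floor of 3. Genes with 50 CPM in spleen or in both colon libraries entered the counts, with 2-fold as threshold. Shares were taken after thinning to 1000 UMIs. Colon cells were clustered in scanpy 1.11.5 and igraph 0.11.9 (10000 UMIs per cell, log, 2000 variable genes, 20 components, 15 neighbours, Leiden resolution 0.8, no batch correction). Doublets were not called; the 5% of cells with most UMIs were left out as an alternative, beside edgeR 4.0.16 TMM scaling in R 4.3.3 and others given at the end. Interval and thinning code was tested on simulated data.

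The text names the 6 factors, partner genes from a list of 20, the 5 genes most like each factor (found in at least 3% of cells of both colon libraries), up to 4 genes per pathway list with the largest mean log2 ratio, Egfr, Oprd1, Fcgr2b, Il12a, Il27, Csf1r and Timp1, and the 5 top genes of each cluster by fold, of which 1 is not reported here; the metalloproteases, Pdcd1 and Hopx in the Penk comparison, and genes of other-cell lists are named beside these. Gene positions come from GENCODE vM21. The members, lists and tests were chosen with earlier results of these data known.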

Additional observations from a re-analysis of the deposited data

How the results depend on the processing

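The count of 5 factors past 2-fold in both colon libraries was 5 under TMM, median of ratios and non-ribosomal scaling, without the CPM filter, at 4-fold, without each colon library, without cells of other-cell markers, without the top 5% of cells and with means over cells. All 6 factors passed the CPM filter, and leaving out a colon library only drops a condition, so these settings could not lower the count. Of 48 alternative mean log2 ratios, 47 stayed within counting error; that of Penk fell from 2.88 to 2.52 without the top 5% of cells by UMIs. Over single colon libraries the mean log2 ratio ran from 2.83 to 3.27 for Areg, 2.82 to 2.95 for Penk, 3.04 to 3.46 for Fgl2, 0.72 to 0.80 for Ebi3, 2.13 to 2.61 for Csf1 and 6.42 to 6.56 for Mmp9. The share of cells with 2 or more factors followed the depth: 10.5%, 22.7% and 24.6% in colon 1 at 700 UMIs, at 1500 UMIs and unthinned, and 12.9%, 27.1% and 32.8% in colon 2. Of 105 alternative pair ratios, 20 moved, and of 24 alternative shares of a factor's UMIs in its top cluster, 20 moved with cluster size. The count of factors whose top cluster is that with the highest Gata3 level was 3, with 3 at resolution 0.5 and 30 components and 2 at resolution 1.2 and 10 components, where that cluster was split; 84.0 to 98.4% of the cells in the top clusters of Areg, Penk and Ebi3 came from cluster 1 throughout. The top cluster of Csf1 shared only 10.7 to 16.7% of its cells with cluster 5, so no cluster of Csf1 is settled. No paired analysis was possible because the groups share no replicate numbers that pair samples, and only 1 spleen library exists. Few UMIs per positive cell (a median of at most 2 in colon for all factors but Penk) limit what shares of cells and pairs can show.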

Other observations

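A further list held 37 other secreted factors, of which 25 were measured. By the 2-fold rule 12 of them were higher in both colon libraries and 4 lower. Among all measured genes the shares higher and lower were 10.4% and 5.4%. A gene high in colon can count as measured through colon alone. The counts of this list are therefore a description too and cannot be read against those shares. Il10 and Gzmb were the highest of this list by ratio, together with Metrnl, which encodes the cytokine meteorin-like (3.18 CPM in spleen, against 81.4 CPM in colon 1 and 66.4 CPM in colon 2), and Ccl4, a chemokine gene (3.98, 111 and 21.4 CPM). Both rested on few spleen UMIs, 4 for Metrnl and 5 for Ccl4, and Ccl4 differed between the colon libraries.

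The 4 lower factors, named after their values were seen, were the tumour necrosis factor family genes Lta (38.2, 7.98 and 5.62 CPM) and Ltb (912, 409 and 407 CPM), the chemokine gene Ccl5 (113, 24.7 and 16.9 CPM) and the cytokine gene Osm (27.9, 2.39 and 6.38 CPM). Il10 had been found in more of the cells with Mmp9, while the epithelial repair ligand genes Tgfa, Egf and Epgn had at most 4 UMIs in a library.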
